A study of Mus musculus with 2 samples.

Results

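The epithelial sodium channel and the genes through which aldosterone acts on it were examined in mIMCD3 cells, a mouse renal tubule epithelial line from the inner medullary collecting duct, with and without the hormone FGF23. The gene set held 10 genes, Scnn1a, Scnn1b, Scnn1g, Nr3c2, Nr3c1, Hsd11b2, Sgk1, Nedd4l, Tsc22d3 and Kcnj1, chosen by name. Non-control array spots carrying these names gave 12 probes of 55681, or 10 gene names of 34650, with Nr3c1 and Nedd4l having 2 probes each. All 10 symbols were in RefSeq's gene table.

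Cells given FGF23 at 10 ng/mL for 4 h were set against unstimulated cells, and all were grown in DMEM/F12 with fetal bovine serum. The labels name no aldosterone or other steroid. Total RNA of both conditions was hybridised together on each of 2 two-colour Agilent arrays, with FGF23 RNA in Cy3 on array 1 and in Cy5 on array 2. Separate cultures or extracts for the arrays are not stated, so every p-value from limma reflects only how these arrays differ, which may be technical.

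In the collecting duct, sodium enters principal cells through a channel built from alpha, beta and gamma subunits, encoded by Scnn1a, Scnn1b and Scnn1g. Aldosterone binds the mineralocorticoid receptor Nr3c2, and the enzyme Hsd11b2 protects that receptor by inactivating glucocorticoids. The receptor induces the kinase Sgk1, which phosphorylates the ubiquitin ligase Nedd4l and so keeps it from removing the channel from the membrane.

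After FGF23, none of the 5 genes that could be tested passed in either direction, and the other 5 of the 10 were not tested. The alpha subunit gene Scnn1a, the glucocorticoid receptor gene Nr3c1, the kinase Sgk1, the ligase Nedd4l and the steroid-induced leucine zipper gene Tsc22d3 were above background in both conditions. For the brightest probe of each, mean fold differences over both arrays lay between 0.998 and 1.12. Their log2 ratios on single arrays ran from -0.13 to 0.34. The beta and gamma subunits, Hsd11b2 and the potassium channel gene Kcnj1 were not well above background in either dye on either array. The mineralocorticoid receptor gene Nr3c2 was well above background in Cy5 on both arrays and in Cy3 on neither.

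Whether a spot was well above background was the scanner software's own call. Over non-control spots, the median signal before correction lay between 52.5 and 54.5 scanner units in Cy3 and between 69.9 and 76.9 in Cy5. Of the 12 probes, 7 had that call in both dyes on both arrays, against 45.6% of all probes. These 7 probes belonged to 5 genes and passed the filter used for testing, which asked for the call on both arrays in at least 1 condition. Another 4 probes had the call in no dye on either array, against 43.0% of all probes.

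As a check of the labelled cell type, 8 of 8 general kidney epithelial markers, among them Cdh1, Epcam and Pax8, were measured. Of 6 principal cell markers, Aqp2 and Gata3 were measured, while Aqp3, Aqp4, Avpr2 and Fxyd4 were below the filter. Markers of other cells were measured in part, with 2 of 5 for intercalated cells, 4 of 6 for proximal tubule, 2 of 4 for thick limb and distal tubule, 1 of 4 for fibroblasts, 2 of 4 for macrophages and 2 of 3 for endothelium. Of all 34650 gene names on the arrays, 19169 were measured. Principal cell, intercalated cell, thick limb and distal tubule, fibroblast and macrophage markers fell below that share. General epithelial, proximal tubule and endothelial markers lay above it. No marker count was tested against it. None of the measured markers passed the test.

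The signal of each gene came from designed probes of 60 bases. The first 30 bases are given 5′ to 3′ for 7 of them, because the presence or absence of signal in the channel subunits, the receptor, its guarding enzyme and the main steroid targets rests on these sequences.
Scnn1a probe: tgggtagactgaactgtgctcagggatgag
Scnn1b probe: ccacccagcaactagtgaactcaaaactga
Scnn1g probe: ttgtgaaaattataagattcaaatgctagt
Nr3c2 probe: gaccagctgccaaaggtggaatccgggaac
Hsd11b2 probe: ctggctgctccaagacagctgcagtgacta
Sgk1 probe: gtatcgtgtaaaggaagtctgtacattggg
Tsc22d3 probe: ctgctgtacgactccaggatttggatttgg

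The probes of the channel subunits differed in composition. Over the whole 60 bases the Scnn1a and Scnn1b probes were 45% G or C, while the Scnn1g probe was 20%, the lowest of the 12. Scnn1a was probed at chr6:125294843-125294902 (mm9, plus strand). The probes of Scnn1g and Scnn1b lay on one chromosome, at chr7:128911932-128911991 and chr7:129061584-129061643 (mm9, plus strand). The Hsd11b2 probe, at chr8:108046785-108047002 (mm9, plus strand), covered 218 bases of genome with its 60 bases, so it spanned a gap such as an intron. Exon and UTR positions of the other probes were not analysed here.

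The channel subunits come first. Before normalisation, the Scnn1a spot had a mean signal of 87.5 scanner units with FGF23 (array 1) and 87.2 in unstimulated cells (array 2) in Cy3. In Cy5 it had 170.1 with FGF23 (array 2) and 165 in unstimulated cells (array 1). The ratio of FGF23 over unstimulated within a dye was thus 1.004 in Cy3 and 1.03 in Cy5 for Scnn1a, before any adjustment for the arrays' overall brightness.

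After background correction and dye normalisation, Scnn1a had an intensity of 142 with FGF23 and 152 without it on array 1, and 153 with FGF23 and 136 without it on array 2. The conditions overlapped, and the sign of the difference was opposite on the 2 arrays. The log2 ratio of FGF23 over unstimulated was -0.10 on array 1 and 0.17 on array 2, with a mean of 0.032 ± 0.19 (SD, n = 2 arrays). In limma's fit over 19169 genes its 95% interval ran from -0.17 to 0.23, or from 0.889-fold to 1.18-fold. Scnn1a was dim, so an offset used in the correction compresses its ratio, and a doubling of its corrected signal would have read as 0.71 on this log2 scale.

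Scnn1b and Scnn1g stayed near the level of the array's 308 negative control spots, whose 95th percentile in Cy3 was 43.4 on array 1 and 44.1 on array 2, and in Cy5 45.2 on array 1 and 49.0 on array 2. Scnn1b had 41.1 with FGF23 and 43.4 in unstimulated cells in Cy3, and 47.2 with FGF23 and 37.25 in unstimulated cells in Cy5. Scnn1g had 38.4 with FGF23 and 36.7 in unstimulated cells in Cy3, and 43.6 with FGF23 and 42.5 in unstimulated cells in Cy5. All 8 of these signals lay at or below the negative control percentile of their dye and array. Log2 ratios of these 2 genes, at -0.014 ± 0.085 and -0.0055 ± 0.12 (SD, n = 2 arrays), are therefore ratios of background-level signals and were not tested.

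**Figure D1:**
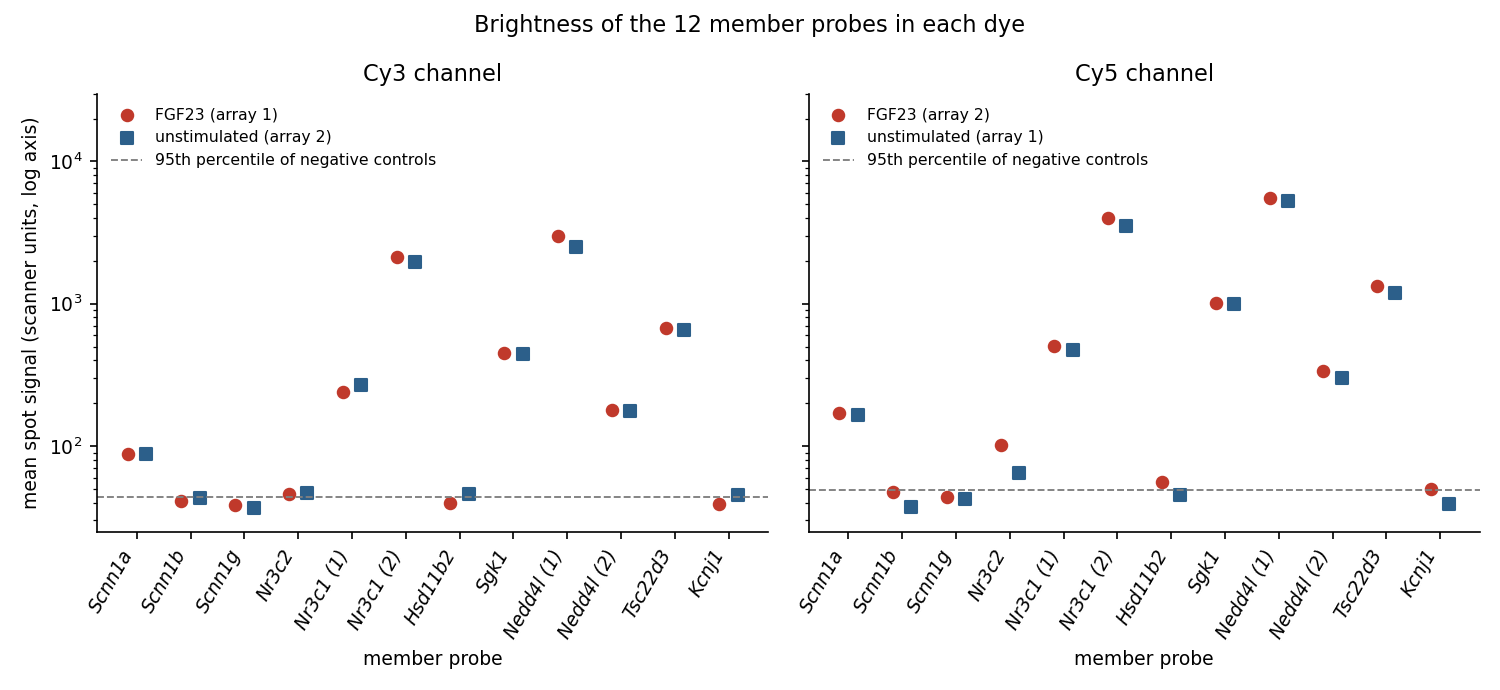
Mean spot signal in scanner units on a log axis for each of the 12 probes, in Cy3 (left) and Cy5 (right), with FGF23 as circles and unstimulated cells as squares; the dashed line is the higher array's 95th percentile of the negative control spots (44.1 in Cy3, 49.0 in Cy5). Nr3c1 and Nedd4l have 2 probes each, numbered 1 and 2. Circles and squares of Sgk1, Nr3c1, Nedd4l and Tsc22d3 sit far above the line and close to each other. Scnn1a is nearer to the line, at 87.5 (FGF23) and 87.2 (unstimulated) in Cy3. Scnn1b, Scnn1g, Hsd11b2 and Kcnj1 lie around it.

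Of the receptors, Nr3c2 was detected in 1 dye. Its spot had 45.8 with FGF23 and 47.0 in unstimulated cells in Cy3, and 101 with FGF23 and 64.2 in unstimulated cells in Cy5. The local background around the Cy5 spot was 54 with FGF23 (array 2) and 38 in unstimulated cells (array 1). Being well above background in Cy5 on both arrays and in Cy3 on neither was found for 1696 of 55681 probes (3.05%), and for Nr3c2 it meant that each condition had the call on 1 of 2 arrays.

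The normalised log2 ratio of Nr3c2 was -0.032 on array 1 and 0.29 on array 2, a mean of 0.13 ± 0.22 (SD, n = 2 arrays), and was not tested. The authors' deposited log ratio, made by the scanner software, was here converted to log2 of FGF23 over unstimulated. It was -0.39 with an error of 0.57 on array 1 and 1.63 with an error of 0.44 on array 2. The deposited p-values of that software were 0.50 and 0.00019. Array 2's value was the only one below 0.05 among the 12 probes on either array, where 2.95% of all probes on array 1 and 2.93% on array 2 were below it. On both arrays Cy5 was the brighter dye, so the sign of the Nr3c2 difference between conditions was opposite on the 2 arrays.

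Nr3c1, the receptor that binds glucocorticoids in nearly all cells, was measured by 2 probes on chromosome 18, at chr18:39571641-39571700 and chr18:39574183-39574242 (mm9, minus strand). The brighter probe, A_55_P1967885, had normalised intensities of 3108 with FGF23 and 2453 without it on array 1, and of 2764 with FGF23 and 2904 without it on array 2. Conditions overlapped, and the log2 ratio was 0.34 on array 1 and -0.072 on array 2. Its mean was 0.13 ± 0.29 (SD, n = 2 arrays), with a 95% interval from -0.087 to 0.36.

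The dimmer Nr3c1 probe, A_52_P254174, did not show the array 1 difference. It had 358 with FGF23 and 363 without it on array 1, and 383 with FGF23 and 393 without it on array 2. The log2 ratios were -0.019 and -0.036, and the interval in the fit of every kept probe ran from -0.21 to 0.16. The mean ratios of the Nr3c1 probes thus had opposite signs, and both intervals held 0.

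Hsd11b2, whose product spares Nr3c2 from glucocorticoids, had 39.7 with FGF23 and 46.0 in unstimulated cells in Cy3, and 55.8 with FGF23 and 44.9 in unstimulated cells in Cy5. It was not well above background in any of these 4 measurements. Its log2 ratios, -0.041 and -0.037, were alike on both arrays but compared signals near background, where a doubled signal would have read as only 0.34. In the authors' deposited log ratio, converted in the same way, Hsd11b2 was at 0 on array 1 and -0.0027 on array 2.

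Sgk1, the kinase that aldosterone induces, probed at chr10:21719507-21719566 (mm9, plus strand), had almost the same signal in both conditions within each dye. It had 449.9 with FGF23 and 446 in unstimulated cells in Cy3, and 1006 with FGF23 and 997 in unstimulated cells in Cy5, a ratio of 1.01 in either dye. These ratios compare spots across the arrays before any adjustment for overall brightness. The median signal was higher on array 2, at 54.5 against 52.5 in Cy3 and 76.9 against 69.9 in Cy5.

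After normalisation Sgk1 had 666 with FGF23 and 731 without it on array 1, and 728 with FGF23 and 667 without it on array 2. The conditions overlapped. The log2 ratio was -0.13 on array 1 and 0.13 on array 2, with a mean of -0.0031 ± 0.18 (SD, n = 2 arrays) and a 95% interval from -0.20 to 0.20. On the fold scale that interval was 0.868-fold to 1.15-fold, and a doubled Sgk1 signal would have read as 0.94.

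Tsc22d3 encodes a leucine zipper protein that glucocorticoids and aldosterone induce. Its probe, at chrX:137074094-137074153 (mm9, minus strand), had normalised intensities of 982 with FGF23 and 858 without it on array 1, and of 952 with FGF23 and 962 without it on array 2. Conditions overlapped, with log2 ratios of 0.20 and -0.015. The mean was 0.091 ± 0.15 (SD, n = 2 arrays), with a 95% interval from -0.11 to 0.29.

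Nedd4l was the only measured gene of the set above 0 on both arrays. With median centring in place of loess it was not, at -0.43 on array 1 and 0.71 on array 2. Median centring left 3.02% of all genes above 0 on both arrays, against 23.9% with loess. That loss of a shared sign was thus not particular to Nedd4l. Its brighter probe, A_55_P2030752 at chr18:65372799-65372858 (mm9, plus strand), had 4406 with FGF23 and 3608 without it on array 1, and 3775 with FGF23 and 3696 without it on array 2. Here both FGF23 intensities lay above both unstimulated ones, as they did for 15.1% of all genes tested, while for 13.2% both lay below. The log2 ratio was 0.29 on array 1 and 0.031 on array 2, with a mean of 0.16 ± 0.18 (SD, n = 2 arrays).

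Nedd4l did not pass limma's test, with an unadjusted p of 0.11, an adjusted p of 0.9999 and a 95% interval from -0.041 to 0.36. The second Nedd4l probe, A_55_P2030756 at chr18:65377413-65377472 (mm9, plus strand), had 267 with FGF23 and 244 without it on array 1. On array 2 it had 264.5 with FGF23 and 263.9 without it. Its mean log2 ratio was 0.066 ± 0.088 (SD, n = 2 arrays). On array 2 this second probe was at 0.0034 here, at -0.012 with the scanner software's log ratio and at -0.029 with a normexp offset of 0, so its sign there depended on the correction.

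Kcnj1 encodes the channel through which principal and thick limb cells secrete potassium, and was probed at chr9:32206612-32206671 (mm9, plus strand). It had 39.2 with FGF23 and 45.2 in unstimulated cells in Cy3, and 50.2 with FGF23 and 39.4 in unstimulated cells in Cy5. The conditions overlapped, and a doubled signal would have read as 0.29. Kcnj1 was not tested.

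**Figure D2:**
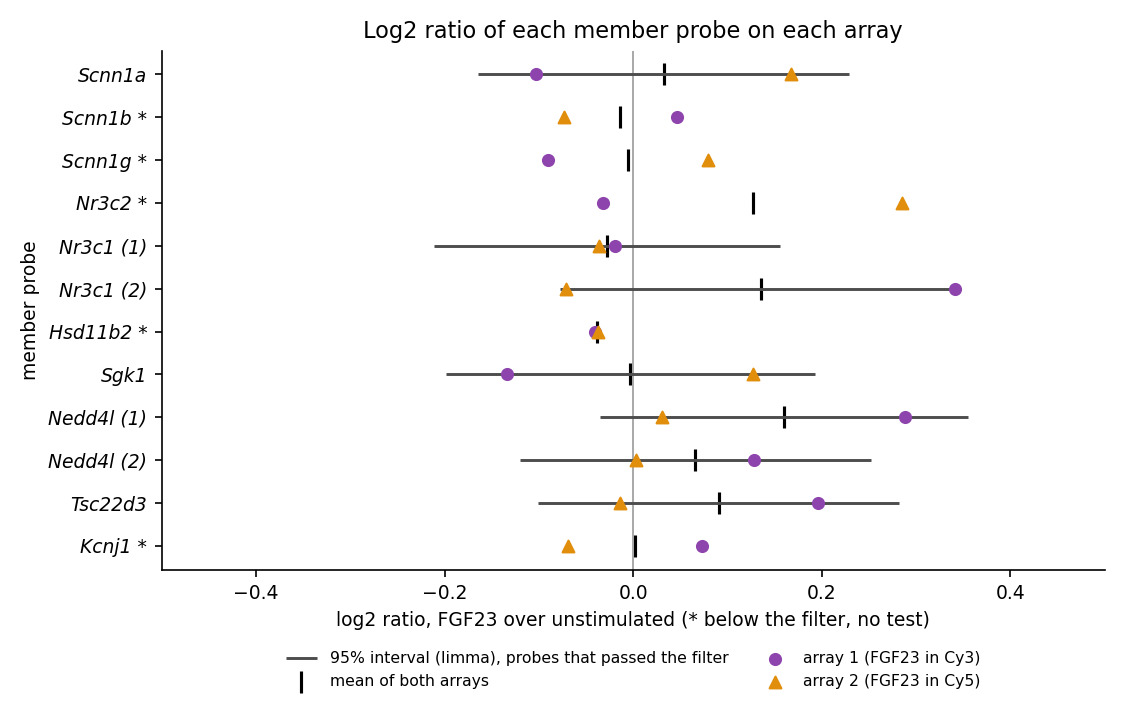
Log2 ratio of FGF23 over unstimulated for each of the 12 probes, on array 1 (circles) and array 2 (triangles), with the mean (bar) and, for the 7 probes that passed the filter, the 95% interval from limma's fit of every kept probe; asterisks mark the 5 probes below the filter, and probes of Nr3c1 and Nedd4l are numbered 1 and 2 as in the plot of brightness. Every interval holds 0, and circles and triangles of Scnn1a and Sgk1 lie on opposite sides of 0.

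Across the set, limma called 0 of 5 measured genes at an adjusted p under 0.05, and 0 at an unadjusted p under 0.05, where 0.0522% and 3.93% of all genes were called. With every kept probe tested by itself, 0 of 7 probes passed, against 0.0854% of all kept probes. The lowest adjusted p in the set was 0.9999. Only 1 of 5 genes had 1 sign on both arrays, against 46.2% of all genes tested. An exact test over 2 arrays could not go below a two-sided p of 0.50.

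Averaged over the arrays without turning them by condition, Cy5 over Cy3 had a log2 ratio of 0.14 for Scnn1a and 0.13 for Sgk1. It was -0.21 for the brighter Nr3c1 probe, -0.13 for the brighter Nedd4l probe and -0.11 for Tsc22d3. Each dye orientation was run once, so a difference between dyes and a difference between arrays or their samples cannot be told apart. Over the 5 genes the median log2 ratio was 0.091 (array 1, 0.20; array 2, 0.031), against -0.00072 over all genes (array 1, -0.012; array 2, 0.015). It was 0.054 with the mean of each gene's kept probes, and 0.017 over all 10 genes when the filter was dropped.

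**Figure D3:**
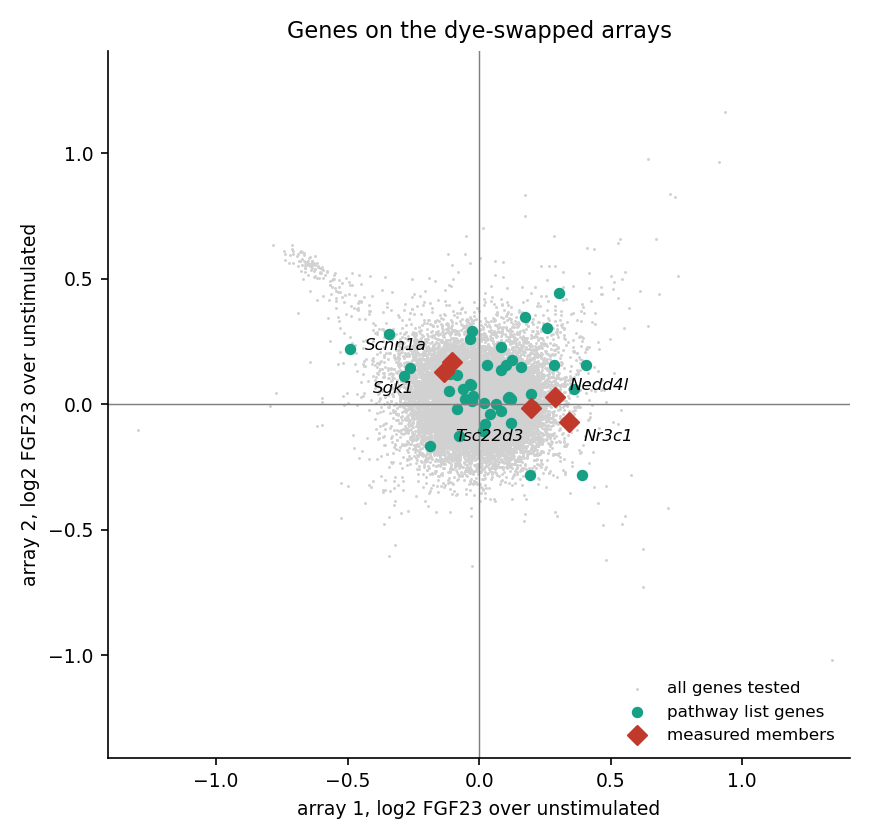
Log2 ratio of FGF23 over unstimulated on array 1 (x axis) and array 2 (y axis), with all 19169 genes tested in grey, the 44 measured genes of the pathway lists as green circles and the 5 measured members as red diamonds. Scnn1a and Sgk1 lie left of 0 on array 1 and above 0 on array 2, Nr3c1 and Tsc22d3 lie right of 0 and below it, and Nedd4l is above 0 on both.

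Other genes of the pathway were read from 6 lists. Of their 48 genes 44 were measured, and 0 passed limma's test over all genes in either direction. Above 0 on both arrays were 17, against 23.9% of all genes, and below 0 on both were 3, against 22.3%. Among the 42 with the background call on both arrays in both conditions, 17 were above and 2 below. With median centring 0 of the 44 were above 0 on both arrays and 1 was below, against 3.02% and 3.34% of all genes. At an unadjusted p under 0.05 there were 6 of 44, all with positive ratios, against 3.93% of all genes in either direction. Their median log2 ratio was 0.027 (array 1, 0.035; array 2, 0.060).

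Serine proteases that cleave and activate the channel, with their inhibitors, had 7 of 8 genes measured, of which 4 were above 0 on both arrays and 0 below. Tmprss4, a membrane protease that can activate the channel, had log2 ratios of 0.26 and 0.31 (mean 0.28 ± 0.033, SD, n = 2 arrays). Prss8, the membrane-anchored prostasin, had 0.18 and 0.35 (0.26 ± 0.12), and its second kept probe had a mean of 0.15. Adjusted p from limma was 0.76 for Tmprss4 and 0.9999 for Prss8, so neither passed. The list's median was 0.071.

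Another list held kinases and ubiquitin enzymes that act on the channel or on Sgk1, with mTOR complex subunits and adaptor proteins. It had 12 of 12 genes measured and a median log2 ratio of 0.0069. Of these, 1 was above 0 on both arrays and 2 were below. Mlst8, a subunit shared by the mTOR complexes, had -0.076 and -0.13, and the adaptor protein gene Ywhab had -0.082 and -0.019. None had an unadjusted p under 0.05.

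Partners of the steroid receptors, such as chaperones and coactivators, had 8 of 9 genes measured and a median of 0.038. The coactivator gene Ncoa1 had 0.13 and 0.18, and its other kept probes had means down to 0.070. Ncoa2, a related coactivator, had 0.030 and 0.16. Hsd11b1, the enzyme that regenerates active glucocorticoid, was below the filter.

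Genes that corticosteroids induce had 12 of 12 measured, with a median of 0.061, 6 above 0 on both arrays and 0 below. Ddit4, an inhibitor of mTOR signalling that steroids and low oxygen induce, had log2 ratios of 0.30 and 0.44 (mean 0.37 ± 0.099, SD, n = 2 arrays). It had the lowest adjusted p of the 6 lists, 0.33 in limma, and an interval from 1.14-fold to 1.48-fold. When the prior followed intensity and was fitted robustly, Ddit4 passed limma's test at an adjusted p of 0.019, as did 79 of 19169 genes in all. Under no other setting did it pass. The lowest adjusted p there was 0.18 in limma, with the mean of kept probes. Cebpd, a transcription factor of the C/EBP family, had 0.28 and 0.15 (0.22 ± 0.092).

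The potassium channel list had 2 of 4 genes measured. Kcnj16, an inward rectifier subunit of the basolateral membrane, had 0.41 and 0.16 (0.28 ± 0.18, SD, n = 2 arrays), with an adjusted p of 0.93 in limma. Kcnma1, the large-conductance calcium-activated channel, had -0.19 and -0.17 (-0.18 ± 0.014). It was dim, with the background call on 1 of 2 arrays for FGF23 and on 2 of 2 for unstimulated cells. It thus passed the filter only through the condition in which it was higher, and its sign supports nothing. Its mean moved to -1.02 with the scanner software's log ratio and to -0.51 with a normexp offset of 0, with an adjusted p of 0.52 and 0.28 in limma.

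All 3 genes of a chromatin list related to Scnn1a transcription were measured, with a median of 0.12. Mllt3, a partner of the histone methyltransferase Dot1l in repression of Scnn1a, had 0.085 and 0.23 (0.16 ± 0.10, SD, n = 2 arrays). Sirt1, a deacetylase, had 0.20 and 0.041 (0.12 ± 0.11). Neither passed.

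**Figure D4:**
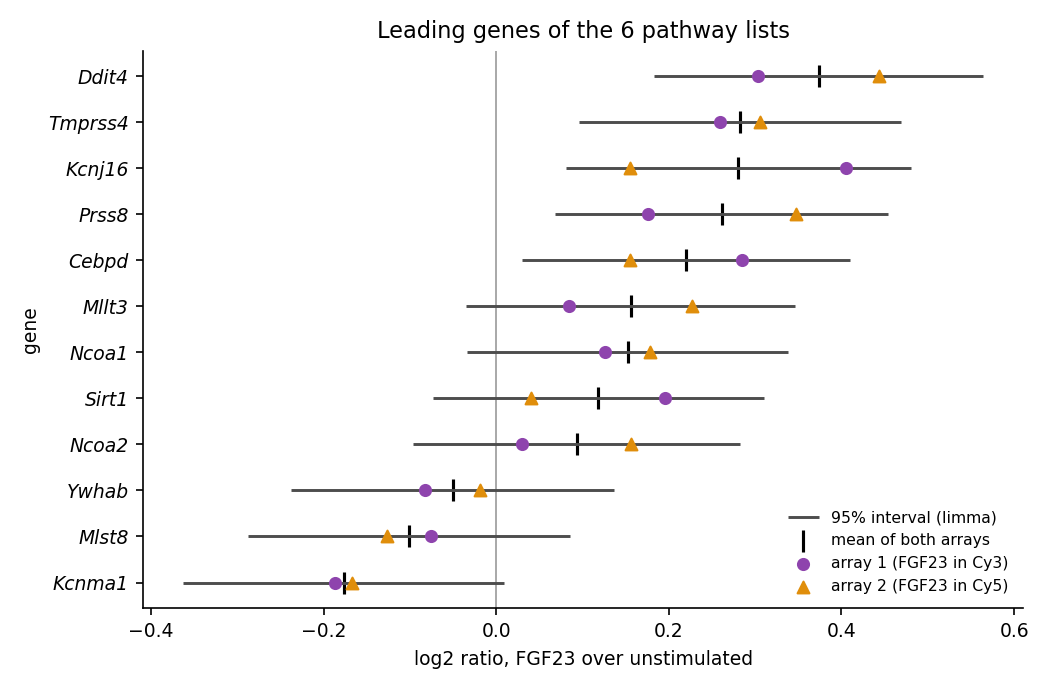
Log2 ratio of FGF23 over unstimulated for the 12 leading genes of the 6 pathway lists, on array 1 (circles) and array 2 (triangles), with the mean (bar) and the 95% interval from limma. Ddit4, Tmprss4, Kcnj16, Prss8 and Cebpd have intervals above 0, and none of the 12 passed after adjustment over all genes.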

How the data were processed

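The scanner output came from Feature Extraction 11.5.1.1, and probe positions were those of mouse build mm9, both as the file headers give them. The authors deposited, per the file headers, spot and background intensity values in linear scanner units. A log10 ratio of Cy5 over Cy3, after the software's background subtraction and dye normalization, was deposited by the authors per the file headers. A p-value of that ratio from the software's error model was also deposited, per the file headers. The scanner's ratio was here converted to log2 and turned to FGF23 over unstimulated.

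From mean intensity and local background, normexp correction (offset 50) and loess within each array were run in limma 3.58.1 (R 4.3.3), with control spots at weight 0. Ratios were turned to FGF23 over unstimulated by the dyes in the labels. Of 55681 probes 26941 passed the filter. The brightest kept probe stood for a gene, and 19169 genes were fitted with lmFit and eBayes, with Benjamini-Hochberg adjustment. The fit had 1 residual degree of freedom per gene and drew each spread towards one shared over all genes, worth 12.6 degrees of freedom, on which p-values and intervals mostly rest. No saturated spot was found on either array, and none of the 12 probes had an outlier flag. Precision is limited by the number of arrays.

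The genes of the set, the lists and the alternatives were chosen with earlier results of these data known. All genes of the set were named, and from each list the genes past the test or, with none, the 2 with the largest mean ratio of 1 sign on both arrays. The test was checked on simulated data for recovery of 200 changed genes. That check does not bear on whether the 2 arrays here hold separate cultures.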

Additional observations from a re-analysis of the deposited data

How the results depend on the processing

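For the counts that differ here between settings, the cause was not tested. None of the genes of the set passed under any of the 8 processing alternatives, nor had any of them an unadjusted p under 0.05 there. Over the whole array 10 genes passed the test in the values reported. This number was 0 with the scanner software's log ratio, 0 with median centring and 5 with a normexp offset of 0. It was 15 with no filter on dim probes, and 15 with the background call required on both arrays in both conditions. It was 19 with the mean of a gene's kept probes, 23 probes with each kept probe tested and 79 genes with a robust prior that followed intensity. Under the last of these 1 gene of the pathway lists passed, Ddit4. The median of the set lay between 0.031 and 0.20 on single arrays and between 0.017 and 0.10 under the processing alternatives. Of 40 mean ratios of measured genes of the set under a processing alternative, all 40 kept their sign and their side of the threshold. The sign was free to change only with the scanner software's log ratio, median centring or a normexp offset of 0. With the mean of kept probes it could change for Nr3c1 and Nedd4l alone. The other settings kept the same ratio of the same probe. The dimmer Nr3c1 probe, with a mean of -0.028, was not among the 40. Scnn1a ranged from 0.013 to 0.052, Sgk1 from -0.017 to -0.0031, Tsc22d3 from 0.080 to 0.10, Nedd4l from 0.11 to 0.16 and Nr3c1 from 0.054 to 0.14. Among list genes Kcnma1 ranged from -1.02 to -0.17. Below the filter, Nr3c2 moved to 0.62 with the scanner software's log ratio, and Hsd11b2 ranged from -0.16 to 0.0045. Low signal over background limits what can be said of Scnn1b, Scnn1g, Nr3c2, Hsd11b2 and Kcnj1, for which a doubled signal would have read as 0.27 to 0.46 on the log2 scale.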
